A study of Mus musculus with 8 samples.

Results

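The Id genes and a small set of BMP pathway genes were followed in mouse embryonic stem cells in which condensin II, both condensins or cohesin had been depleted. The 7 genes are named members of the Id family and other components of the pathway, with no threshold on their values: Id1, Id2, Id3, Id4, Bmp4, Bmpr1a and Smad6. They were read by 16 probe sets with exactly 1 gene symbol, among 18140 genes with such a probe set on the array. All 7 passed the filter on low values, which left 12394 genes.

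The cells were of the line V6.5, an established mouse embryonic stem cell line. In every group, the control included, a lentivirus delivered a short hairpin RNA. The cells were given 8 µg/ml polybrene on infection, selected for 4 days in 4 µg/ml puromycin and harvested for RNA on day 5. The CapH2 knockdown targeted the condensin II subunit gene Ncaph2 with hairpins 3 and 4, 1 array each. The Smc2 knockdown targeted a subunit common to condensin I and II with hairpins 1 and 2, also 1 array each. Cohesin was depleted through its subunit gene Smc1a (the Smc1 knockdown). This group and the control group, whose hairpin targeted GFP, were each 2 biological replicates of a single hairpin. Effects of the lone Smc1 or GFP hairpin on other genes therefore cannot be told apart from those of its target, and the spread within the condensin groups holds differences between hairpins.

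Bone morphogenetic proteins are secreted ligands that bind pairs of type I and type II receptor kinases. The receptors phosphorylate Smad1, Smad5 and Smad9, which enter the nucleus with Smad4 and switch on target genes, the Id genes foremost among them. Id proteins are helix-loop-helix proteins without a DNA-binding region: they pair with E proteins and keep them from activating differentiation genes. In mouse embryonic stem cells, BMP4 together with LIF is known to hold cells in the undifferentiated state, in part through Id genes, while strong BMP signalling without LIF favours mesoderm and trophoblast-like fates.

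The upstream sequences of Id2 and Id3, which rose together with Id1 in the cohesin knockdown, and of Id4, whose brightest probe set did not, are shown here to place the signal's best-known binding letters in them. They are the 250 bases before the annotated start in RefSeq, build GRCm38.p6, printed 5′ to 3′ on the strand of the gene, and 6 of the 7 genes had an entry. Capitals mark every match, on either strand, to CAGAC (the core letters bound by Smad proteins) or to GGCGCC (a GC-rich element bound by the BMP Smads, which reads the same on both strands). The windows lie at chr12:25096093-25096342 (minus strand) for Id2, chr4:136143572-136143821 (plus strand) for Id3 and chr13:48260866-48261115 (plus strand) for Id4.
Id2: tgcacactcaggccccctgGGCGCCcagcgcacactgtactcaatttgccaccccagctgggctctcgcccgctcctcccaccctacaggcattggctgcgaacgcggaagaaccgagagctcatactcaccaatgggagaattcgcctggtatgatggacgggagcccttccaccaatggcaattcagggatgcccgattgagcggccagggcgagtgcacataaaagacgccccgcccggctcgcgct
Id3: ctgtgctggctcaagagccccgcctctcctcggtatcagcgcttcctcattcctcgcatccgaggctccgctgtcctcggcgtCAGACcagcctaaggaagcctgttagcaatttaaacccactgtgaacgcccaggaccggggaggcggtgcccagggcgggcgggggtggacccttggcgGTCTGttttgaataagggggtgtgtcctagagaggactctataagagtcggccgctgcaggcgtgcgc
Id4: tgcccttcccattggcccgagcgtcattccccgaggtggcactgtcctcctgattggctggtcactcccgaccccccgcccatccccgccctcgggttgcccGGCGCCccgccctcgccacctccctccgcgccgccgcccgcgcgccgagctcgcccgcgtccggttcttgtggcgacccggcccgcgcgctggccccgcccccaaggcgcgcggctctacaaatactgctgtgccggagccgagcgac

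The Id3 window held 2 matches to CAGAC, whose first bases lay 167 and 68 bases before the start, and none to GGCGCC. The Id2 and Id4 windows each held 1 match to GGCGCC, at 231 and 148 bases, and none to CAGAC. Of the other members with an entry, Bmpr1a held 1 match to GGCGCC, at 198 bases, and Bmp4 and Smad6 held neither motif. Among all 32851 windows of the same length, 42.2% held CAGAC and 9.59% held GGCGCC. The letters thus occur in Id4, whose brightest probe set was not called, as well as in Id2, and a match is a description of the sequence only. GC made up 62.8% of the Id2 and Id3 windows and 75.6% of the Id4 window, against a median of 52.4% over all windows.

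The labelled knockdowns were seen in the targeted genes: Ncaph2 was 397.5 and 429.5 in CapH2 against 3469 and 3168 in GFP, Smc2 was 2234 and 2859 in the Smc2 knockdown against 8756 and 7146, and Smc1a was 534.8 and 453.8 in Smc1 against 4165 and 3662. The array medians lay between 62.5 and 74.5 intensity units. They serve below as a yardstick for a dim signal, since no detection calls were used. Intensities are compared between arrays within a probe set, never between genes. In bulk RNA a lower share of expressing cells and less RNA per cell cannot be told apart.

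Id1, Id2 and Id3 were higher in the Smc1 knockdown than in the GFP control, and Id1 and Id2 were also higher than in the condensin knockdowns. Id4, Bmpr1a and Smad6 were not called in any comparison on the probe set that stood for the gene, and Bmp4 was higher on both Smc1 arrays without passing the test. Calls were made in limma at an adjusted p (Benjamini-Hochberg, over all 12394 genes) under 0.05. In Smc1 against GFP 3 of the 7 genes were called, all higher, where 14.0% of all genes were called, 9.30% higher and 4.69% lower. These shares stand for 1153 genes called higher and 581 called lower. With 1 Smc1 or GFP array left out, its group keeps 1 array and the test loses precision. Such fits therefore cannot tell whether calls rest on single arrays. The median log2 change of the 7 was 1.13, and that of all genes tested was 0.03.

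**Figure D1:**
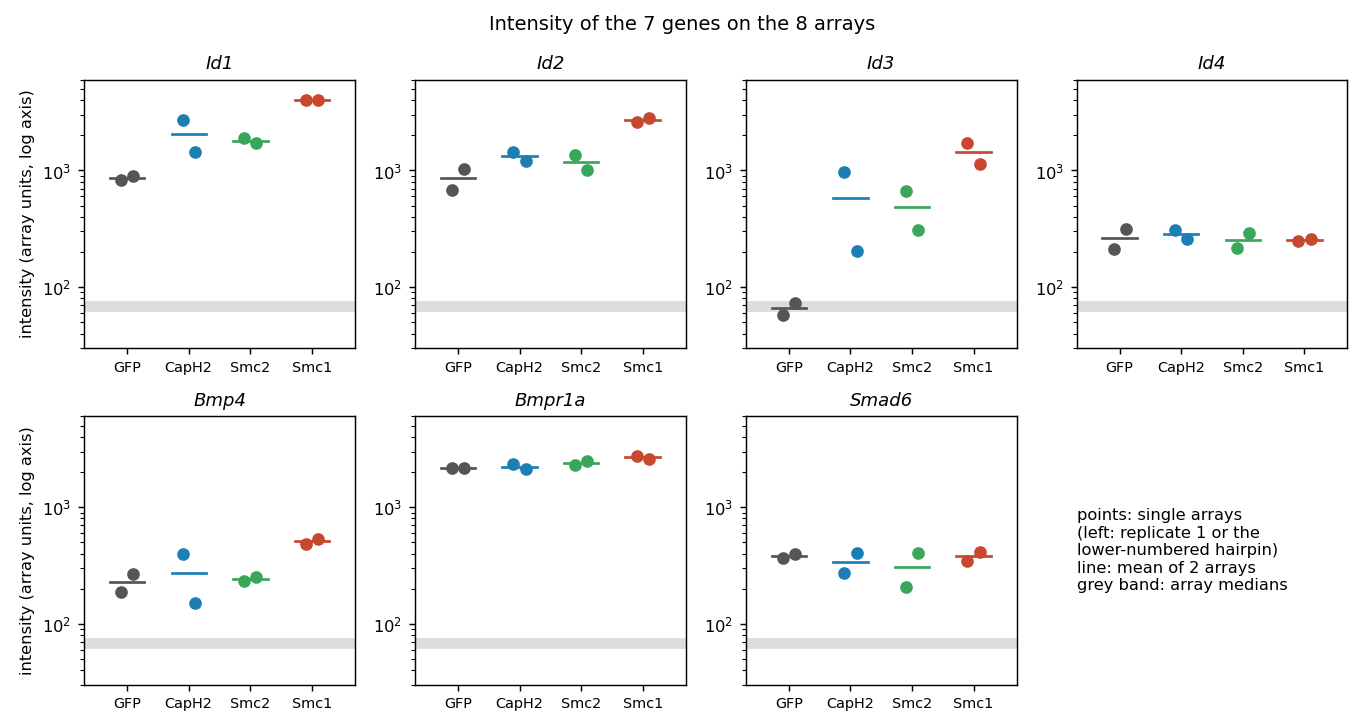
Intensity of the probe set standing for each of the 7 genes (log axis) on the 2 arrays of each group, with a line at the group mean and a grey band at the array medians of 62.5 to 74.5. Id1, Id2 and Id3 are highest on both Smc1 arrays; Id3 falls to the band on the GFP arrays.

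Id1 (probe set 1425895_a_at) had the smallest gap between the Smc1 arrays among the 7 genes. It measured 832.4 and 901.7 in GFP, 2705 and 1439 with CapH2 hairpins 3 and 4, 1899 and 1707 with Smc2 hairpins 1 and 2, and 4019 and 3983 in Smc1. Both Smc1 arrays lay above all 6 other arrays, and all 4 condensin arrays lay above both GFP arrays. Means were 867 ± 49.0 in GFP and 4001 ± 25.4 in Smc1 (SD, n = 2 each). The rise was 4.61-fold, a log2 change of 2.19 (SE 0.257, n = 2 per group, limma adjusted p = 0.00235).

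Id2 behaved much like Id1 at a smaller size. On its brightest probe set, 1435176_a_at, it measured 683.7 and 1035 in GFP, 1453 and 1211 in CapH2, 1351 and 1005 in Smc2, and 2579 and 2805 in Smc1. Only the Smc1 arrays stood well apart: the lower Smc2 array, hairpin 2, lay below the higher GFP array. The log2 change in Smc1 against GFP was 1.66 (SE 0.237, n = 2 per group, adjusted p = 0.00354), or 3.13-fold in means.

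A second Id2 probe set, 1422537_a_at, tested in a fit of every probe set on its own, gave the same direction: 222.5 and 215.5 in GFP against 765.6 and 902.0 in Smc1, a log2 change of 1.85 (SE 0.276, adjusted p = 0.00360). Here the CapH2 values (565.0 and 319.7) and the Smc2 values (434.1 and 321.6) all lay above GFP. The third Id2 probe set stayed below the array median on all 8 arrays, with values from 8.60 to 64.5, and was not tested.

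Id3 (probe set 1416630_at) had the largest change among the 7 genes and the widest spread between arrays. It measured 57.9 and 73.3 in GFP, below the median of each array, 970.8 and 202.5 in CapH2, 666.9 and 307.3 in Smc2, and 1735 and 1142 in Smc1. The 4 groups kept the order GFP, the condensin knockdowns, Smc1, with no overlap between neighbours other than CapH2 and Smc2. The log2 change in Smc1 against GFP was 4.13 (SE 0.594, n = 2 per group, adjusted p = 0.00367). Because the GFP signal was so dim, the 21.9-fold ratio of the means has no firm size.

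Without Smc1 replicate 1 the change of Id3 was 3.83, and without GFP replicate 1 it was 3.99. Each of these fits kept 1 array in a group, so they cannot tell whether the call rests on the array left out. Over all 20 alternatives the change in Smc1 against GFP ran from 1.72 to 2.24 for Id1. It ran from 1.29 to 1.95 for Id2 and from 2.59 to 4.43 for Id3.

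**Figure D2:**
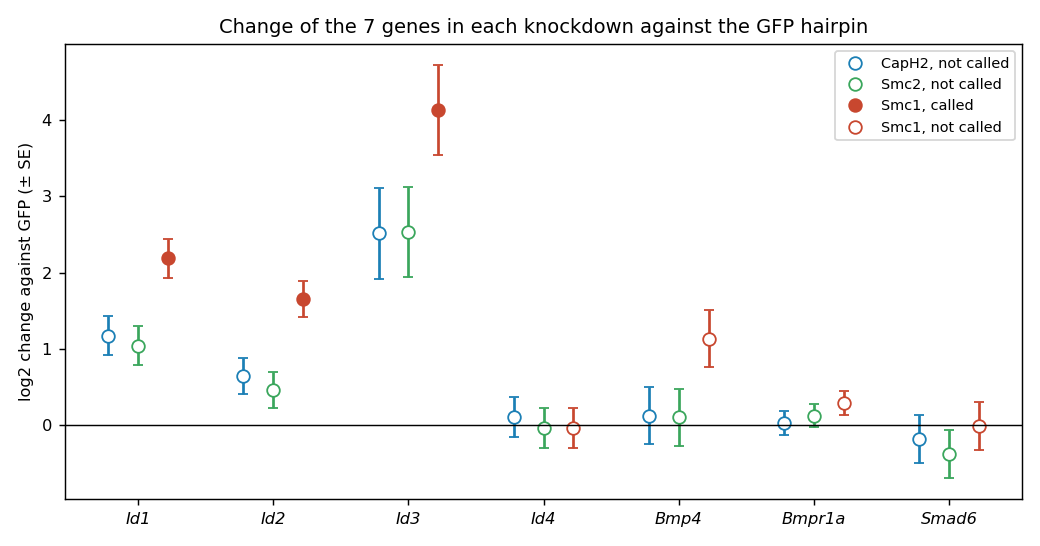
Log2 change against GFP, with its limma SE, for the 7 genes in the CapH2, Smc2 and Smc1 knockdowns. Filled points passed the adjusted p of 0.05: Id1, Id2 and Id3 in Smc1 (2.19, 1.66 and 4.13) and none in CapH2 or Smc2.

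In the condensin knockdowns the same 3 genes were higher in mean than in GFP, and none was called. The comparisons of CapH2 and of Smc2 with GFP use the same GFP arrays. In CapH2 the log2 changes were 1.17 for Id1 (SE 0.257, adjusted p = 0.194), 0.65 for Id2 (SE 0.237, adjusted p = 0.341) and 2.51 for Id3 (SE 0.594, adjusted p = 0.197). In Smc2 they were 1.04 for Id1 (adjusted p = 0.226), 0.46 for Id2 (adjusted p = 0.434) and 2.53 for Id3 (adjusted p = 0.221). So 0 of 7 genes were called in either comparison by limma, where 0.0161% of all genes were called in each. At an unadjusted p below 0.05 there were 3 of 7 in CapH2 and 2 of 7 in Smc2, beside 1565 and 1560 of the 12394 genes.

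In 3 of the 7 genes (Id1, Id2 and Id3) the lower CapH2 array exceeded the higher GFP array, against 25.3% of all genes. The lower Smc2 array did so in 3 (Id1, Id3 and Bmpr1a), against 23.1%. The lower Smc1 array did so in 5 (Id1, Id2, Id3, Bmp4 and Bmpr1a), against 34.5%. On the probe set that stood for the gene, no member lay below both GFP arrays in any of the 3 comparisons. Dimmer probe sets of Id4 (in CapH2 and Smc1) and of Bmpr1a (in all 3) did. The share of all genes lying below is not given here.

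The hairpins of each condensin knockdown differed most at Id3. Its level was higher with CapH2 hairpin 3 than with hairpin 4 by 2.18 on the log2 scale, a gap at the 99.9th percentile of all genes tested in that group, where the median gap was 0.26. Bmp4 (1.30, percentile 98.2) and Id1 (0.90, percentile 93.7) also differed between these hairpins, with hairpin 3 the higher. With Smc2 hairpin 1 Id3 was higher than with hairpin 2 by 1.08 (the 94.5th percentile), while Id1 differed by 0.15. The size of the Id3 change in CapH2 moved accordingly, from 1.43 without hairpin 3 to 3.60 without hairpin 4. For Id1 it moved from 0.72 to 1.62.

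Against each other, the condensin knockdowns gave 0 of 7 calls in limma, where 0.00807% of all genes were called. At an unadjusted p below 0.05 there were 0 of 7, beside 128 of the 12394 genes. The difference of CapH2 from Smc2 was 0.13 for Id1 (95% interval -0.44 to 0.70), 0.18 for Id2 (-0.34 to 0.71) and -0.02 for Id3 (-1.34 to 1.31). These intervals are wide, that of Id3 above all, and do not show that the knockdowns act alike.

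The cohesin knockdown against the mean of the condensin knockdowns uses no GFP array. Here 2 of the 7 genes were called, both higher in Smc1, where 7.75% of all genes were called and 5.53% higher. Id1 was higher by 1.08 (SE 0.223, limma adjusted p = 0.0213) and Id2 by 1.10 (SE 0.205, adjusted p = 0.0145). Id3 was higher by 1.61 (SE 0.515, adjusted p = 0.0899) and Bmp4 by 1.02 (SE 0.323, adjusted p = 0.0873), and neither was called. Both Smc1 arrays lay above all 4 condensin arrays for each of these 4 genes and for Bmpr1a. The share of all genes that did so is not given here, so this only describes the values of the members. Smc1 replicate 1 minus replicate 2 was 0.01 for Id1 and -0.12 for Id2 on the log2 scale. Leaving out either Smc1 array keeps 1 array in the group, so such fits cannot tell whether the calls rest on it. Without CapH2 hairpin 3 the difference was 2.15 for Id3 and 1.35 for Bmp4.

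Id4, the fourth Id gene, had 3 probe sets that did not move together. On the brightest, 1423259_at, it measured 212.7 and 317.3 in GFP, 308.1 and 257.8 in CapH2, 217.1 and 292.9 in Smc2, and 246.5 and 257.2 in Smc1, so that every knockdown group overlapped the control (Smc1 against GFP -0.04, SE 0.261, adjusted p = 0.927). On a dimmer probe set, 1450928_at, it measured 180.5 and 284.9 in GFP and 101.1 and 108.5 in Smc1. There it fell by 1.01 on the log2 scale (SE 0.287, adjusted p = 0.0441 in the fit of every probe set). On the third, 1423260_at, the Smc1 values of 75.5 and 100.2 also lay below the GFP values of 132.2 and 137.7, without a call (-0.55, SE 0.263, adjusted p = 0.195). None of the Id4 probe sets showed the rise of the other Id genes.

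**Figure D3:**
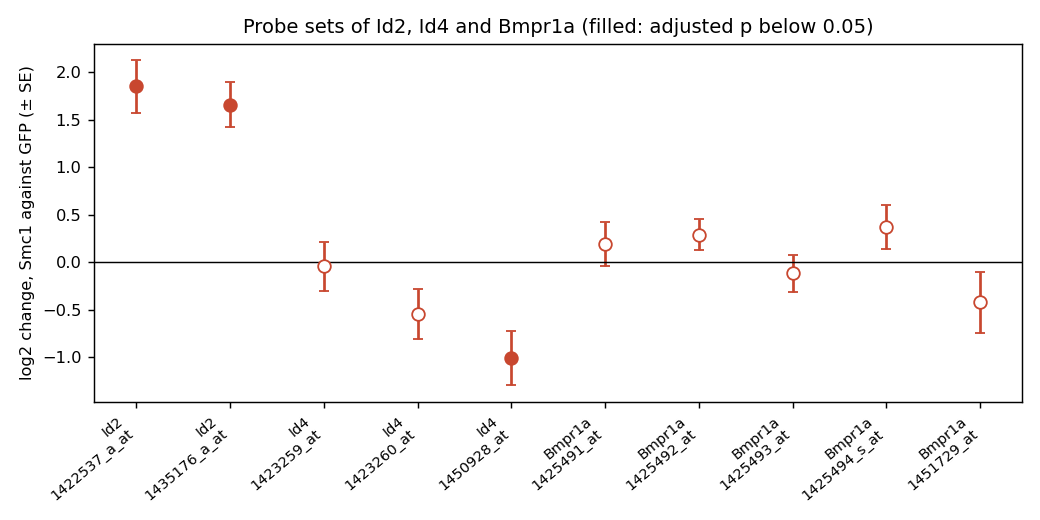
Log2 change in Smc1 against GFP, with its limma SE, for each tested probe set of Id2, Id4 and Bmpr1a. Both tested Id2 probe sets rose (1.85 and 1.66), the Id4 probe sets lay below 0, and 1 of them passed the test (-1.01).

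Bmp4 (probe set 1422912_at), the ligand of the pathway best known in these cells, measured 185.7 and 268.8 in GFP, 393.7 and 149.9 in CapH2 (hairpins 3 and 4), 233.3 and 250.1 in Smc2, and 484.7 and 535.3 in Smc1. Both Smc1 arrays were above every other array, and the 3 other groups overlapped. The log2 change in Smc1 against GFP was 1.13 (SE 0.373, adjusted p = 0.0707), or 2.24-fold in means, and was not called. It passed the test when the fit held only the Smc1 and GFP arrays (adjusted p = 0.00678) or left out CapH2 hairpin 3 or 4 (0.0182 and 0.0167). In CapH2 and Smc2 the changes were 0.12 and 0.10 (adjusted p = 0.914 and 0.926).

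Bmpr1a, the type I receptor through which BMP4 chiefly signals, was the steadiest of the 7. Its brightest probe set, 1425492_at, measured 2189 and 2186 in GFP, 2329 and 2130 in CapH2, 2294 and 2478 in Smc2, and 2770 and 2595 in Smc1. The Smc1 arrays were highest, by 1.23-fold over GFP in means (0.29, SE 0.154, adjusted p = 0.229), which was not called. Of the 5 other Bmpr1a probe sets 4 were tested, with changes in Smc1 against GFP from -0.42 to 0.37 and no call, and 1 was below the array median on all arrays.

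Smad6 (probe set 1422771_at), an inhibitory Smad that is itself a target of the pathway and dampens it, measured 369.4 and 393.3 in GFP, 272.5 and 405.4 in CapH2, 205.4 and 402.7 in Smc2, and 344.7 and 416.8 in Smc1. Its groups overlapped in every comparison. The log2 changes against GFP were -0.19 in CapH2, -0.38 in Smc2 and -0.01 in Smc1 (adjusted p = 0.827, 0.618 and 0.990). In Smc1 the 95% interval ran from -0.71 to 0.69, so a change of the size seen for Id1 lay outside it.

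The order of the mean intensities was GFP, Smc2, CapH2, Smc1 for Id1, Id2, Id3 and Bmp4, and in each the values of CapH2 and Smc2 overlapped. For Id3 the order of the condensin knockdowns holds only for linear means: on the log2 scale CapH2 against Smc2 was -0.02. In Bmp4 GFP overlapped these too, and in Id2 GFP overlapped Smc2. For Bmpr1a the order was GFP, CapH2, Smc2, Smc1, with overlap between GFP and CapH2 and between CapH2 and Smc2. For Smad6 (Smc2, CapH2, Smc1, GFP) and Id4 (Smc1, Smc2, GFP, CapH2) all neighbouring groups overlapped.

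Of 85 other genes of the pathway, 78 were measured and 57 were tested. In Smc1 against GFP 8 were called higher, 2 lower and 47 not called, where 14.0% of all genes were called, and the median log2 change of the 57 was 0.23. Cdx2, among those called higher, passed the filter only through the Smc1 arrays. In CapH2 and in Smc2 against GFP 0 of the 57 were called by limma, where 0.0161% of all genes were. Whether the 10 calls in Smc1 against GFP rest on single arrays cannot be told, since leaving out 1 array keeps 1 in its group.

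**Figure D4:**
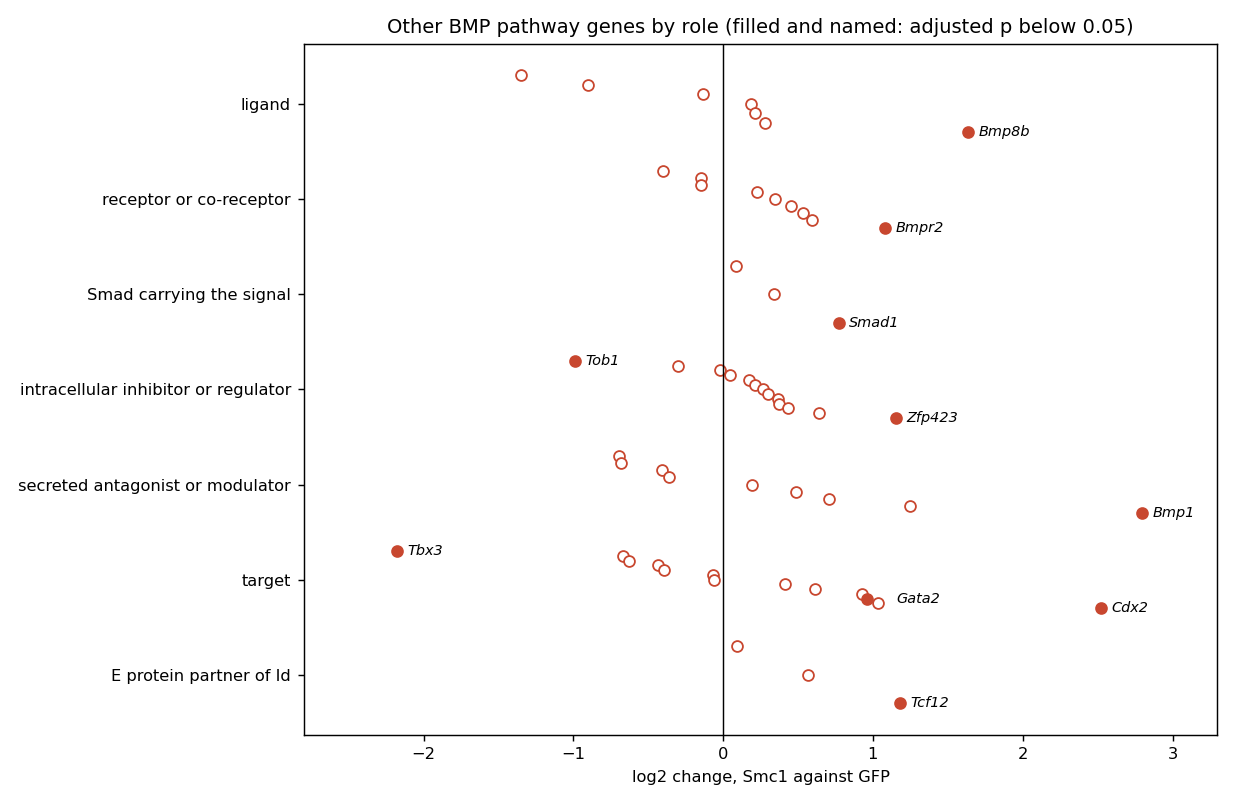
Log2 change in Smc1 against GFP of the 57 other pathway genes tested, in rows by role. Filled and named points passed the adjusted p of 0.05: 8 lie to the right of 0, up to Bmp1 at 2.79, and 2 to the left, Tob1 and Tbx3.

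Among the other ligands 1 of 7 was called, close to the 14.0% of all genes called in Smc1 against GFP. Bmp8b, known for its part in germ cell specification, rose from 69.1 and 57.1 in GFP to 223.7 and 234.2 in Smc1 (1.64, SE 0.381, adjusted p = 0.0216). Its GFP values lay below the median of each array, and its second probe set had a similar change without a call (1.56, adjusted p = 0.0760). Bmp7 was lower on both Smc1 arrays (124.1 and 233.6 against 363.2 and 305.6 in GFP) but was not called (-0.90, adjusted p = 0.190).

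Of 9 receptors and co-receptors 1 was called against GFP, again close to the share of all genes (14.0%). Bmpr2, the type II BMP receptor, rose from 969.9 and 1103 in GFP to 2415 and 2016 in Smc1 (1.08, SE 0.176, adjusted p = 0.00590). Of 2 dimmer probe sets 1 rose by 2.06 (adjusted p = 0.0471) and 1 was not called (1.10, adjusted p = 0.182). The one called was at 13.7 and 11.5 in GFP, below the array medians, which leaves its size uncertain. It exceeded the array median on 3 arrays, both Smc1 arrays among them, so the filter favoured a rise there. On its brightest probe set Bmpr2 was also higher in Smc1 than in the condensin knockdowns, where it measured 1570 and 1442 (CapH2) and 1360 and 1360 (Smc2), by 0.62 (adjusted p = 0.0380). Rgmb, a BMP co-receptor, was called only in that last comparison (0.76, adjusted p = 0.0398), and not against GFP (0.54, adjusted p = 0.126). Of its 5 other probe sets the 2 that were tested were called in neither comparison. Against the condensin knockdowns they were higher by 0.93 and 0.14 (limma adjusted p = 0.229 and 0.804).

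The remaining receptors were not called against GFP. The log2 changes were 0.59 for the type I receptor gene Acvr1 (adjusted p = 0.0812), 0.45 for Acvr2a (0.115) and -0.15 for Acvr2b (0.645), both type II receptors shared with activin. The others were Amhr2 (-0.40), the endothelial co-receptor gene Eng (0.34), Hjv (0.23) and Tgfbr3 (-0.15), with adjusted p from 0.275 to 0.833.

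Of the 3 tested Smads that carry the signal, Smad1 was called, where 14.0% of all genes were. It measured 1137 and 1211 in GFP, 2034 and 1997 in Smc1, 2041 and 2144 in CapH2 and 2035 and 1772 in Smc2, so that all 6 knockdown arrays stood above the control arrays. The change in Smc1 against GFP was 0.77 (SE 0.163, adjusted p = 0.0151). In CapH2 it was 0.83 and in Smc2 0.69, neither of them called (adjusted p = 0.161 and 0.221). The difference of Smc1 from the condensin knockdowns was 0.02 (95% interval -0.30 to 0.33). Its 2 other probe sets were higher by 0.81 and 0.60 (adjusted p = 0.0907 and 0.0637). Smad5, which acts beside Smad1 (0.09, adjusted p = 0.829), and their partner Smad4 (0.34, adjusted p = 0.133) were not called.

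Among 13 intracellular regulators 1 was higher and 1 lower, beside 9.30% and 4.69% of all genes. Zfp423, a zinc finger cofactor of BMP Smads, was 168.3 and 205.5 in GFP and 541.5 and 345.1 in Smc1 (1.15, SE 0.322, adjusted p = 0.0419), and the condensin arrays ranged from 305.0 to 531.0. Tob1, which restrains BMP Smads, fell by 0.99 (adjusted p = 0.0353), from 4461 and 3890 to 1937 and 2264. The feedback inhibitors Smad7 (0.04, adjusted p = 0.919) and Bambi (-0.02, adjusted p = 0.953), which like Smad6 are targets of the pathway, were not called.

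Of 9 secreted antagonists and modulators, only Bmp1 was called, where 14.0% of all genes were. Its protein, in spite of its name, is a protease that cleaves the antagonist chordin and procollagens. It measured 132.1 and 21.6 in GFP and 523.4 and 481.1 in Smc1 (2.79, SE 0.604, adjusted p = 0.0163). The wide gap between the GFP arrays makes that size uncertain.

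Besides the Id genes, 13 targets of the pathway were tested in Smc1 against GFP: 2 rose, 1 fell and 10 were not called, where 9.30% of all genes were called higher and 4.69% lower. Cdx2, a trophectoderm factor, was 7.25 and 28.8 in GFP, below the array medians, and 239.7 and 118.0 in Smc1 (2.52, SE 0.491, adjusted p = 0.0109). Its other probe set (52.3 and 6.87 in Smc1) stayed below the array median on all arrays. Gata2 rose from 191.3 and 196.0 to 392.3 and 390.8 (0.96, adjusted p = 0.0194), and its second probe set was not called (0.79, adjusted p = 0.0999). Tbx3, a factor that also marks naive embryonic stem cells, fell by 2.18 (SE 0.389, adjusted p = 0.00786), from 1092 and 1905 to 200.2 and 465.2, and the 1 other Tbx3 probe set that was tested fell by 2.43. Gata3, at 39.1 and 58.7 in GFP and 124.8 and 106.8 in Smc1, was not called against GFP (1.04, adjusted p = 0.130). It was higher in Smc1 than in the condensin knockdowns (1.39, adjusted p = 0.0487), as were Cdx2 (1.84) and Gata2 (1.00), while Tbx3 was lower there (-1.79). Cdx2 and Gata3 exceeded the array median on the 2 Smc1 arrays alone. They passed the filter only through that group, so the filter favoured a rise there. The pathway calls against the condensin knockdowns differed in how often they held under other settings: Gata3 was called in 5 of 19 alternatives, Rgmb in 6 of 19, Tcf4 in 5 of 20 and Bmpr2 in 9 of 20. Cdx2 was called in 13 of 18, and Gata2 and Tbx3 in 18 of 20.

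The E proteins, with which Id proteins pair, were not uniform. Tcf12 measured 1352 and 1450 in GFP, 2499 and 2223 in CapH2, 2372 and 2068 in Smc2, and 3379 and 3024 in Smc1, and rose in Smc1 against GFP by 1.18 (SE 0.166, adjusted p = 0.00337). Its order over the groups was the one of Id1. Of its 4 other probe sets 2 were tested, and they were higher by 0.77 and 0.59 without a call (adjusted p = 0.0574 and 0.229). Tcf4 was 0.56 higher in Smc1 than in GFP (adjusted p = 0.0791) and was called against the condensin knockdowns (0.65, adjusted p = 0.0450). Of its 5 other probe sets 4 were tested, with no call in either comparison. Their changes ran from -0.19 to 0.66 against GFP and from 0.29 to 0.56 against the condensin knockdowns. Tcf3 was not called (0.09, adjusted p = 0.781).

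The quality of the labelled RNA, read here from 1 control transcript, moved with the Id genes only in part. The Actb 3′ to 5′ ratio, a control measure that rises as RNA or its labelling falls short of the 5′ end, was 1.70 and 1.83 on the Smc1 arrays and 2.18 and 2.04 on the GFP arrays. It was 1.67 and 1.98 on CapH2 (hairpins 3 and 4) and 1.82 and 2.18 on Smc2 (hairpins 1 and 2), so that in each condensin knockdown the hairpin with more Id3 had the lower ratio. Yet with Smc2 hairpin 2, whose ratio was as high as that of GFP, Id3 lay 1.99 and Id1 0.97 above the GFP mean on the log2 scale. With this ratio as a term in the fit, the changes in Smc1 against GFP were 1.72 for Id1 (adjusted p = 0.0124) and 2.59 for Id3 (adjusted p = 0.0113), smaller than without it but called. Id2 had a change of 1.29 (adjusted p = 0.0239). The change of Bmp4 was 0.58 (adjusted p = 0.474), and of the 10 other pathway calls 3 were kept: Bmp1, Bmpr2 and Tcf12. Calls fell over all genes too: 436 were called higher and 134 lower with the term, against 1153 and 581 without it. In CapH2 the Id3 change went from 2.51 to 1.23 (adjusted p = 0.529). In Smc2 it was 2.04 and was called (adjusted p = 0.0392).

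**Figure D5:**
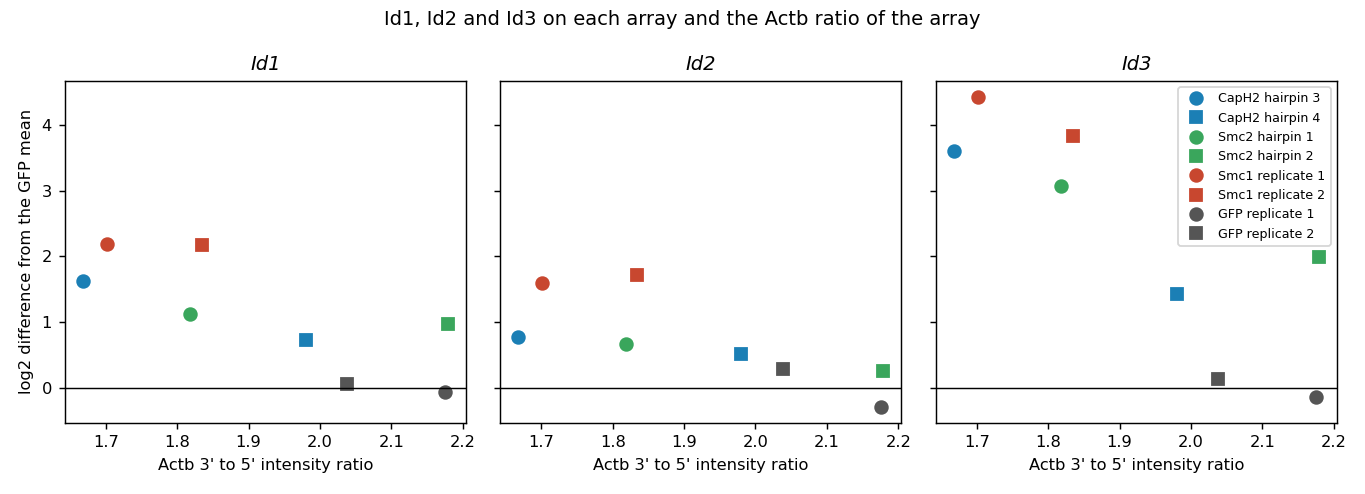
Log2 difference of Id1, Id2 and Id3 on each array from the mean of the GFP arrays, against the Actb 3′ to 5′ ratio of that array (circles: replicate 1 or the lower-numbered hairpin, squares: the other). The 4 arrays with ratios from 1.67 to 1.83 have the highest values of all 3 genes.

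Some markers of other cell types moved in the same arrays. The marker counts below stand beside 9.30% of all genes called higher and 4.69% called lower in Smc1 against GFP. The embryonic stem cell list was present throughout: 10 of 10 markers were measured above the array median on some array, and their summed intensity was 84541 to 101471 in Smc1, 111561 to 126780 in the condensin knockdowns and 129666 to 135446 in GFP. In Smc1 against GFP 6 of these 10 were lower, Nanog (-0.73), Esrrb (-1.57), Zfp42 (-0.83), Sox2 (-0.88) and Pou5f1 (-0.82) among them, and 1 was higher. Of 20 fibroblast markers, cells in which Id genes are also active, 14 were tested and 2 were higher, Col3a1 (1.92) and Pdgfra (1.37). Their summed intensity was 3022 to 3094 in Smc1, 2211 to 2982 in the condensin knockdowns and 1976 to 2247 in GFP. Lum, Dcn, Fap, Prrx1, Twist2 and Col6a1 were below the array median on all 8 arrays.

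Of 12 trophectoderm markers 11 were tested, with Krt19 (2.73) and Cdx2 higher and Tfap2c (-1.51) lower, where 9.30% of all genes were called higher and 4.69% lower. Cdx2 passed the filter only through the Smc1 arrays. The sums were 40459 to 55327 in Smc1, 11096 to 20592 in the condensin knockdowns and 19939 to 28153 in GFP. Krt18 and Krt8 (25784.6 and 20014.5 on Smc1 replicate 1) made up most of them, and neither was called by limma (adjusted p = 0.0634 and 0.0803). Elf5 was below the array median on all arrays. Of 13 primitive endoderm markers 10 were tested and 2 were higher, Dab2 (1.79) and Pdgfra. Their sums were 10579 to 10868 in Smc1, 5366 to 10124 in the condensin knockdowns and 5396 to 7331 in GFP, with Afp and Ttr below the median throughout. Of 11 neural markers measured 7 were tested, 3 were higher, Map2 (1.33) among them, and 2 lower, Olig2 (-2.20) and Sox1 (-2.29). Their sums were 2903 to 3603 in Smc1, 4322 to 5666 in the condensin knockdowns and 2892 to 2919 in GFP. Of 11 mesoderm markers measured 4 were tested and 2 were higher, Cdh2 (2.50) and Pdgfra, which stands on 3 of the lists. Their sums were 852 to 1114 in Smc1, 652 to 970.1 in the condensin knockdowns and 461 to 672 in GFP, with Mixl1, Kdr, Foxf1, Meox1 and Snai1 below the array median throughout. The part of such cells in the change of the Id genes was not tested.

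By the shape of their values over the 8 arrays, the genes nearest to the members were found among the other 12393 genes tested. The measure was the root mean square difference between log2 profiles, each centred on its own mean, for the 4 members whose values spanned at least 1 on the log2 scale. All profiles come from the same 8 arrays, with their differences in RNA quality, so a small difference describes the arrays only. Nearest to Id1 were Pon2 (0.16), the cadherin gene Fat1 (0.18) and the cyclin gene Ccnd2 (0.19). Nearest to Id2 were the Notch coactivator gene Maml1 (0.12), the amino acid transporter gene Slc43a2 (0.13) and Lrrfip1 (0.15). Nearest to Id3 were the sulfotransferase gene Chst15 (0.37), the carbonic anhydrase gene Car3 (0.46) and Ms4a4d (0.53). Nearest to Bmp4 were Rhog (0.15), Cd99l2 (0.16) and Niban2 (0.17). Among the members themselves, Id1 and Id2 differed by 0.32 and Id2 and Bmp4 by 0.36, while Id3 was 0.84 from Id1 and its values spanned 4.57 against 2.25.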

How the data were processed

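Expression was measured on 8 single-colour Affymetrix arrays in 4 groups of 2, with 100 ng of total RNA each, per the labels. The values that the authors deposited are linear intensity, with each probe set summarised to 1 number per array, by a method not given in the sources used here. Trimmed means (2% at each end) of 488.7 to 489.8 on all arrays show that the arrays had been scaled to a common mean. The number of arrays limits the precision.

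Values were taken as log2(value + 16). Probe sets with several symbols or none were left out, and of several probe sets the brightest on average represented its gene. Genes above the array median on at least 2 arrays were tested. All 8 arrays were fitted with limma 3.58.1 in R 4.3.3 (group means, empirical Bayes with intensity trend), checked on simulated data. Errors are limma SEs. The residual spread is pooled over all groups, so differences between the CapH2 and Smc2 hairpins enter every p-value.

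The members and lists were chosen with earlier results of these data known. Named were all members, all other pathway genes called in any comparison, all E proteins, signal-carrying Smads and tested receptors, up to 3 called markers per list by adjusted p (with Pou5f1, Nanog and Sox2 always), and the 3 genes nearest in profile to each member spanning 1 on the log2 scale. A few others (Bmp7, Smad7, Bambi, Krt8, Krt18 and the markers at low signal) were picked after their values were seen. Alternatives were the pseudocount (1 or 64), normalization, filter, handling of probe sets, groups in the fit, intensity trend, an Actb ratio term, a replicate block and leaving out each array. Upstream windows came from RefSeq, GRCm38.p6.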

Additional observations from a re-analysis of the deposited data

Results flagged for a closer look

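For 2 of the 7 genes the effect of the cohesin knockdown differed from that of the condensin knockdowns by a test of the difference itself. Of all genes, 7.75% were called in that comparison and 5.53% were higher. The share of all genes with both Smc1 arrays above all 4 condensin arrays is not given here. Id1 was higher in Smc1 than in the mean of CapH2 and Smc2 by 1.08 on the log2 scale, and Id2 by 1.10 (limma adjusted p = 0.0213 and 0.0145, both Smc1 arrays above all 4 condensin arrays). The call of Id1 was lost without the intensity trend, and the Smc1 group rests on 1 hairpin. Leaving out 1 Smc1 array keeps 1 in the group, so such fits cannot tell whether the calls rest on it. The depletion was unequal too: the targeted genes kept 0.13 (Smc1a), 0.12 (Ncaph2) and 0.32 (Smc2) of their GFP means. Groups of 2 arrays are too small to be searched for single outlying arrays.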

How the results depend on the processing

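The count of 3 called members in Smc1 against GFP stayed within 1.5 times under every alternative run. Leaving out 1 array gave 0 to 1 called members in CapH2 against GFP, 0 to 4 in Smc1 against the condensin knockdowns, and 0 to 10 other pathway genes in Smc1 against GFP. Without the intensity trend 1 member was called in Smc1 against the condensin knockdowns (Id2). With the Actb ratio term 1 member (Id3) was called in Smc2 against GFP. The share of all genes called is not given here for either of these results. In Smc1 against GFP 3 other pathway genes were called with the Actb ratio term, where 436 of all genes were called higher and 134 lower. No member reversed in a called change. The Smc1 and GFP arrays share replicate numbers 1 and 2, but the deviations of same-numbered arrays from their group means correlated only weakly across genes (r = 0.0667). With the replicate block 3 members and 8 other pathway genes were called in Smc1 against GFP, where 929 of all genes were called higher and 437 lower. The dim GFP signal of Id3 and Cdx2, near or below the array medians, limits the size of their changes. With a pair of arrays per group, how far a call rests on a single array cannot be told.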
